A study of Mus musculus with 7 samples.

Results

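Imprinted genes are transcribed mainly from the chromosome inherited from 1 parent, and many of them set how fast the mouse embryo and its placenta grow. As a rule, paternally expressed members such as Igf2 promote growth, and maternally expressed members such as Cdkn1c and Phlda2 restrain it. They lie in clusters under shared control regions, and several are strongly expressed in the yolk sac and placenta as well as in the embryo. The genes described here are 10 such genes, chosen by name: Phlda2, Cdkn1c, H19 and Rian, which are maternally expressed, and Igf2, Mest, Peg3, Peg10, Sgce and Nnat, which are paternally expressed.

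A probe set, the group of short probes that measures 1 transcript on the array, was taken only where its annotation gave 1 gene symbol and no other. By this rule 9 of the 10 genes were measured, by 14 probe sets, among 12393 genes with such a probe set. H19 was not, because its probe set is also annotated to Mir675, the microRNA gene that lies within H19. All 9 measured genes passed the filter on dim genes, which left 8019 genes to be tested, 3 of the 9 being maternally and 6 paternally expressed.

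RNA came from whole C57BL/6 mouse embryos on embryonic day 9, dissected free of yolk sac and amnion. The groups were wild type (2 arrays), heterozygous for loss of Adnp (ADNP+/-, 3 arrays) and Adnp gene knockout (2 arrays), and each array held RNA pooled from 2 littermates of 1 genotype and, per the labels, mixed sex. ADNP is a homeodomain and zinc-finger protein of chromatin, and the loss is present in every cell of the embryo, which does not survive past mid-gestation. Genotypes rest on PCR of yolk sac DNA for ADNP and the neomycin resistance gene, since Adnp had no probe set of its own. The study asked which genes lie downstream of ADNP. The replicate is the pool of 2 embryos, so p-values measure the spread between pools, and the 7 arrays limit the precision of every value.

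Values are MAS5 signals, a linear brightness per probe set, and signals of different probe sets are not comparable as levels. Differences are on the log2(signal + 3.8) scale, where 3.8 is the 10th percentile of the signals and changes of dim genes come out too small. They were tested with limma over all 8019 genes, with Benjamini-Hochberg adjustment and a threshold of 0.05. Of the 20 embryo marker genes, all but Pax1 and Tbx6 were above the filter level on every array. Pax1, a gene of the sclerotome, read 52.9 to 81.7 in wild type and heterozygotes and 8.5 and 9.3 in the knockout, and Tbx6, of the presomitic mesoderm, read 9.5 to 31.5 on all arrays but knockout replicate 2 (55.4). Of the 19 embryo markers tested, 6 fell in each knockout comparison, against 1.36% of all genes from wild type and 2.76% from heterozygotes. The 23 visceral endoderm markers, genes of the absorptive layer around the early embryo, had a summed signal of 12868 to 15295 in the knockout pools, against 1311 to 3851 in wild type and 1396 to 2676 in heterozygotes. Of 19 measured ones 11 rose against wild type (1.96% of all genes did) and 14 against heterozygotes (3.11%), and 0 fell in limma. The 14 trophoblast markers, genes of the placental lineage, summed to 788.3 to 889 in the knockout, 437.6 to 671.4 in wild type and 436.8 to 558.9 in heterozygotes, and Tpbpa, Elf5, Psg16, Psg17, Ctsq and Pparg stayed below the filter on every array. Y-linked genes summed to 29.5 to 50.2 in wild type and 115.1 to 225.4 on the other 5 arrays. Of these, Eif2s3y read 0.8 and 0.3 in wild type against 21.9 to 59.5 elsewhere, and Kdm5d 10 and 4.3 against 46.7 to 102.9. Uty was also lowest in wild type, and Usp9y stayed below the filter on every array. These signals do not bear out mixed sex for the wild-type pools. In comparisons with wild type, genotype and the sex of the embryos cannot be told apart. Heterozygous replicate 1 carried Prl8a2, a prolactin of the maternal decidua, at 828.6, against 16.2 to 138.4 elsewhere. In RNA of whole embryos, fewer cells of a type and less RNA per cell cannot be told apart.

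Phlda2, Sgce and Igf2 stood higher on both knockout arrays than on any other array, and Nnat stood lower. With so few arrays this is common: it held for 4 of the 9 genes, against 30.7% of all genes (14.2% above and 16.5% below). Rian separated wild type from the other genotypes. Igf2 did so on 1 of its 2 probe sets only, and Rian on 1 of its 3 only. Cdkn1c, Mest, Peg3 and Peg10 did not pass any test. Between knockout and wild type 2 of the 9 genes passed, where 3.32% of all genes did: Rian rose, as did 1.96% of genes, and Nnat fell, as did 1.36%. Between knockout and heterozygotes 4 of 9 passed, against 5.86% of all genes: Phlda2, Sgce and Igf2 rose, as did 3.11% of genes, and Nnat fell, as did 2.76%. Both comparisons use the same 2 knockout arrays. Between heterozygotes and wild type 0 of 9 passed in limma, as did 0% of all genes, and at an unadjusted p under 0.05 it was 1 of 9, Rian, against 3.54% of all genes. Without the intensity trend in limma, Rian alone of these calls passed, and without the filter on dim genes Igf2 and Sgce did not pass (adjusted p = 0.0619 and 0.0602).

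The 2 promoter windows below belong to Phlda2 and Nnat, the genes with the largest rise and the largest fall among the 9. They show how dense CpG dinucleotides, the sites where DNA can be methylated, are at their start sites. Methylation was not measured, and the windows do not show where the imprint of either gene is carried. Capitals mark each CG. The windows run from 250 bases before to 50 after an annotated start, 5′ to 3′ on the gene's strand, and come from RefSeq on GRCm38.p6.
Phlda2 (chr7:143502475-143502774, minus strand): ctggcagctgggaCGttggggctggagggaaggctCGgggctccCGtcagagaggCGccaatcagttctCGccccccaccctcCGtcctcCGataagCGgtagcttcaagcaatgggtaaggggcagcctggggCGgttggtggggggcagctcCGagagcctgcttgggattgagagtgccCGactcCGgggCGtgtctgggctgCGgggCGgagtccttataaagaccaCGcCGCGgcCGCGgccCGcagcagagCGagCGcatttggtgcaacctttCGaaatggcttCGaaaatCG
Nnat (chr2:157559828-157560127, plus strand): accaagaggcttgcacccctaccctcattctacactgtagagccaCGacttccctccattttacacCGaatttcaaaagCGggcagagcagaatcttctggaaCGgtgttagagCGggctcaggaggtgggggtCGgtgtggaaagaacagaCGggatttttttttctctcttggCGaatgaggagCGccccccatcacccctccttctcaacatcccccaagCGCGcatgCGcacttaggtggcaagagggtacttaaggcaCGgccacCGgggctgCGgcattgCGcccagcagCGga
The Phlda2 window holds 26 CG, a number reached by 16.9% of the 32851 windows of this length, and the Nnat window holds 17, reached by 31.4%. The median over all windows is 7. The Phlda2 window also holds the letters TATAAA on 1 of its strands, as do 13.6% of all windows searched on both strands, and the Nnat window does not. Of the 10 genes, 6 had entries (Phlda2, Nnat, Igf2, Mest, Peg3 and Rian), and the single Rian window had 0 CG.

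Phlda2, a small pleckstrin-homology protein that restrains growth of the placenta, showed the largest difference of the 9 genes. Its signal was 67.1 and 30.6 in wild type and 7.4, 58 and 67.9 in heterozygotes, but 337.3 and 370.7 in the knockout. Both knockout arrays therefore lay far above all 5 others, while wild type and heterozygotes overlapped. The means were 48.9 ± 25.8 (SD, n = 2) in wild type, 44.4 ± 32.5 (n = 3) in heterozygotes and 354 ± 23.6 (n = 2) in the knockout. Against heterozygotes the log2 difference was 3.28 (SE 0.66, limma, adjusted p = 0.0195). Against wild type it was 2.86 with a 95% confidence interval of 1.25 to 4.46, and did not pass (limma, adjusted p = 0.0601). The same difference of 2.86 passed without heterozygous replicate 1 (limma, adjusted p = 0.00102) and with array weights (0.0172). It also passed with only wild type and knockout in the fit (0.00633), and at 2.57 with a pseudocount of 16 (0.0229). Heterozygous replicate 1 does not enter the difference from wild type, only the spread. Leaving out any other single array gave no call, with differences of 2.33 to 3.38 over all such fits. Tested over 13576 probe sets the difference from wild type did not pass either (limma, adjusted p = 0.0852). Without heterozygous replicate 1 the difference from heterozygotes was 2.42. The difference from heterozygotes lost its call without knockout replicate 1 (adjusted p = 0.128) or knockout replicate 2 (0.145), where the lone array is assumed to vary like the rest.

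On the other 5 arrays, Phlda2 signals and visceral endoderm marker scores gave the same split into 3 and 2. Wild-type replicate 1 and heterozygous replicates 2 and 3 had the 3 highest marker scores of the 5 (mean log2 signal 6.69, 6.26 and 5.77) and the 3 highest Phlda2 signals. Within these 3 the order differed, with signals of 67.1, 58 and 67.9. How many of all genes split these arrays in the same way was not counted. Wild-type replicate 2 and heterozygous replicate 1 had scores of 5.10 and 5.03 and the lowest 2 Phlda2 signals. The knockout scores were 8.38 and 8.58. The endoderm score used as a covariate, here and below, was the same mean over only the 19 markers past the filter. With it, the Phlda2 difference was -0.02 against heterozygotes and -0.19 against wild type, neither passed (limma, adjusted p = 0.996 and 0.970). With the Y-linked mean as a covariate they were 2.98 (0.0705) and 0.75 (0.984). The endoderm score did not overlap between knockout and the other genotypes, so in a fit with it genotype and score can hardly be told apart. The Y-linked mean did not overlap between wild type (3.25 and 3.77) and the other arrays (4.93 to 5.69). Against wild type, here and below, a fit with the Y-linked mean can therefore hardly tell genotype from score, and 0 of all genes passed there.

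**Figure D1:**
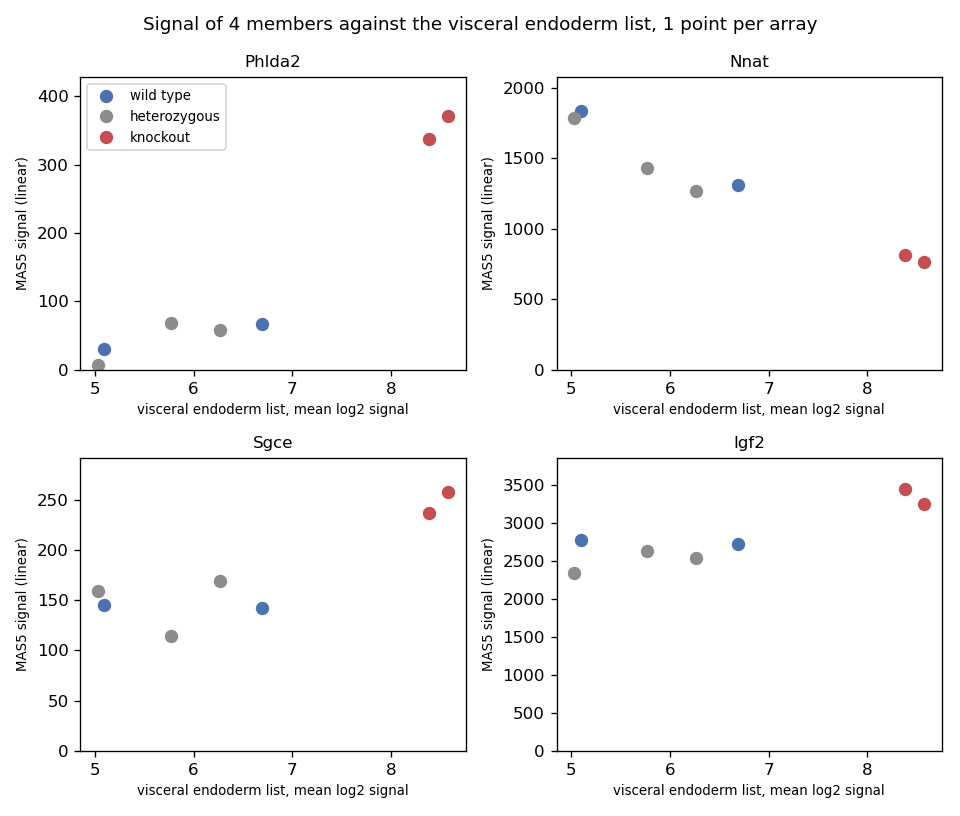
MAS5 signal (linear, from 0) of Phlda2, Nnat, Sgce and Igf2 on the y axes against the visceral endoderm score (mean of the markers in log2) on the x axes, with 1 point per array coloured by genotype. The knockout arrays lie at scores of 8.38 and 8.58, apart from the others at 5.03 to 6.69. Among those 5, the 3 with the higher scores have the higher Phlda2 and the lower Nnat signals, while Sgce and Igf2 show no such order.

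Cdkn1c and Phlda2 lie in the same imprinted cluster on chromosome 7, and both are silent on the paternal copy. Cdkn1c encodes the cyclin-dependent kinase inhibitor p57. Its signal was 717.3 and 1014 in wild type, 926.6, 745.8 and 791.3 in heterozygotes, and 882.2 and 868.2 in the knockout. The knockout arrays lay within the range of wild type and of heterozygotes. The knockout differed from wild type by 0.04 on the log2 scale (95% confidence interval -0.32 to 0.40; limma, adjusted p = 0.937), and the upper bound lay below the lower bound of 1.25 for Phlda2. The measured imprinted neighbours Nap1l4 (-0.13 against wild type, adjusted p = 0.561), Tssc4 (-0.27, 0.321) and Cd81 (-0.09, 0.724) did not pass either. These neighbours were named after their values were seen, as were Meg3 and Dlk1 further on. Of the 5 measured genes of the region given here, 1 passed a knockout comparison, Phlda2.

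Rian is a long non-coding RNA of the Dlk1-Dio3 cluster on chromosome 12 and hosts small nucleolar RNAs. On its brightest probe set it read 117.9 and 105.9 in wild type, 201.3, 173.8 and 213.4 in heterozygotes, and 185.5 and 201 in the knockout. Wild type lay below both other genotypes, which overlapped each other. Rian rose in the knockout against wild type by 0.77 (SE 0.15, limma, adjusted p = 0.0241). The heterozygotes were above wild type by 0.79 (SE 0.14), which did not pass (adjusted p = 0.780), and the knockout differed from the heterozygotes by -0.02 (95% confidence interval -0.33 to 0.29). The Y-linked genes divided the arrays the same way, with wild type lowest. With their mean as a covariate the difference between knockout and wild type was 0.98 and did not pass (limma, adjusted p = 0.908). In that fit 0 of all genes passed against wild type, so the lost call says little about Rian.

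The other Rian probe sets did not show this difference. The probe set 1427580_a_at gave 0.26 against wild type (SE 0.19, limma over 13576 probe sets, adjusted p = 0.513) and 1428055_at gave 0.14 (SE 0.35, adjusted p = 0.874). The mean over the 3 probe sets was 0.39 and did not pass (adjusted p = 0.223). The call was also lost without wild-type replicate 1 (adjusted p = 0.0521), wild-type replicate 2 (0.197), knockout replicate 1 (0.112) or knockout replicate 2 (0.183). Of the measured neighbours in this cluster, Meg3, another maternally expressed long non-coding RNA, was 0.41 above wild type (SE 0.11, adjusted p = 0.0781) and 0.35 above heterozygotes (0.0741). Dlk1, the paternally expressed gene of a Notch-related membrane protein, differed by -0.14 and -0.03 (adjusted p = 0.733 and 0.938). Neither passed.

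H19 is a long non-coding RNA that shares enhancers with Igf2 and is transcribed from the other parental copy. The probe set annotated to both H19 and Mir675 is not a measure of H19 alone and is not counted above. It read 3622 and 3695 in wild type, 3145, 3023 and 3688 in heterozygotes, and 4838 and 4746 in the knockout, so both knockout arrays were above all others. The log2 difference was 0.55 against heterozygotes (SE 0.10, limma over 13576 probe sets, adjusted p = 0.0212) and 0.39 against wild type (SE 0.11, adjusted p = 0.107).

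Igf2, the main growth factor of the mid-gestation embryo, was higher in the knockout by a small margin. Its brighter probe set, 1448152_at, read 2722 and 2784 in wild type, 2347, 2544 and 2638 in heterozygotes, and 3450 and 3256 in the knockout. The 3 genotypes did not overlap, with heterozygotes lowest and the knockout highest. Means were 2753 ± 43.6 (SD, n = 2), 2510 ± 148 (n = 3) and 3353 ± 137 (n = 2). Igf2 rose against heterozygotes by 0.42 (SE 0.09, limma, adjusted p = 0.0207), while the difference of 0.28 from wild type did not pass (SE 0.09, adjusted p = 0.131). Without knockout replicate 1 or 2 the difference from heterozygotes did not pass (adjusted p = 0.183 and 0.122), and after quantile normalization it was 0.20 (0.162). With the endoderm score in the fit it was 0.36 and did not pass (limma, adjusted p = 0.697), and with the Y-linked mean it was 0.44 (0.0541).

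The dimmer Igf2 probe set, 1415931_at, went the other way. It read 59 and 79.9 in wild type, 81.1, 75.7 and 99.3 in heterozygotes, and 65.7 and 47.1 in the knockout. Its differences were -0.58 against heterozygotes (SE 0.22, limma over 13576 probe sets) and -0.29 against wild type (SE 0.24), neither past the threshold. The mean of both probe sets gave a difference from heterozygotes of -0.08 (adjusted p = 0.755). The rise of Igf2 was seen on the brighter probe set alone.

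**Figure D2:**
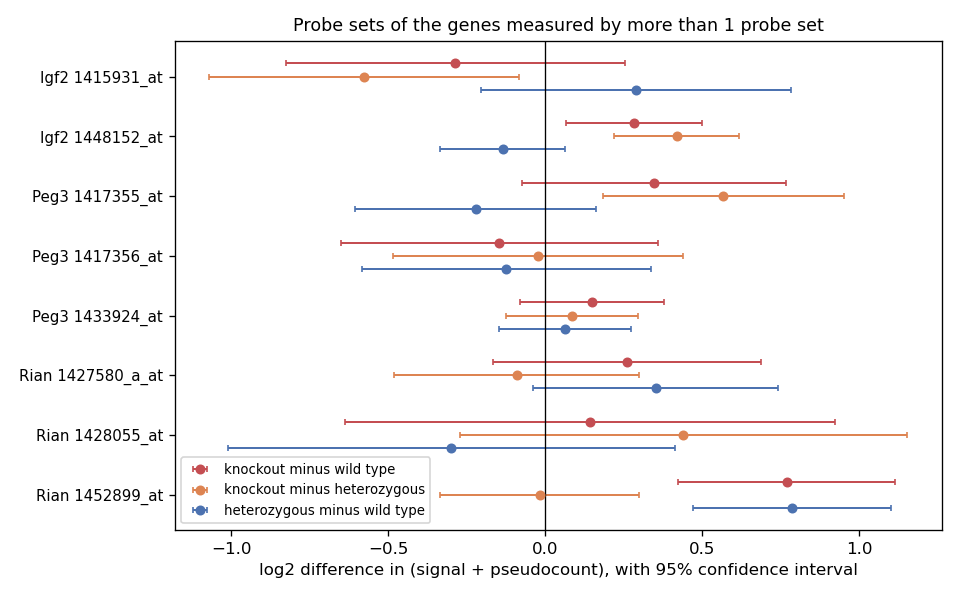
Log2 differences (x axis, points) with 95% confidence intervals (bars) for each probe set of Igf2, Peg3 and Rian (y axis), coloured by comparison. The Igf2 probe sets lie on opposite sides of 0, and for Rian the differences of 0.77 and 0.79 from wild type appear for 1452899_at only.

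Nnat, neuronatin, a small membrane protein expressed in the developing brain and in endocrine cells, fell in the knockout in both comparisons. Its signal was 1313 and 1834 in wild type, 1785, 1269 and 1431 in heterozygotes, and 815.9 and 767.5 in the knockout. Both knockout arrays were below all 5 others. The mean was 791.7 ± 34.2 (SD, n = 2) in the knockout, against 1574 ± 369 (n = 2) in wild type and 1495 ± 264 (n = 3) in heterozygotes. Nnat fell by 0.97 on the log2 scale against wild type (SE 0.18, limma, adjusted p = 0.0186) and by 0.90 against heterozygotes (SE 0.16, adjusted p = 0.0129). The first call was lost without wild-type replicate 2 (log2 difference -0.73, adjusted p = 0.166), knockout replicate 1 (0.103) or knockout replicate 2 (0.148), and the second without either knockout array (0.0891 and 0.122).

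The 2 arrays with the lowest visceral endoderm scores, wild-type replicate 2 and heterozygous replicate 1, had the highest Nnat signals. Among the remaining wild-type and heterozygous arrays, Nnat did not run strictly against the score. The split was seen after the fact, and the share of all genes that show it was not counted. With the score as a covariate the differences were -0.10 against wild type and 0.04 against heterozygotes (limma, adjusted p = 0.919 and 0.979). With the Y-linked mean as a covariate they were 0.10 (0.986) and -0.75, of which the second passed (0.0331). Blcap, the gene whose intron holds Nnat and which is expressed from the maternal copy in brain, did not pass (-0.13 against wild type, adjusted p = 0.721, and -0.30 against heterozygotes, 0.246). Of the nearest measured genes on either side, Src fell against heterozygotes (-0.70, limma, adjusted p = 0.0485). Its difference of -0.73 from wild type did not pass (0.0731). Ctnnbl1 passed in neither comparison (-0.21 and -0.15, adjusted p = 0.369 and 0.447). Blcap, Src and Ctnnbl1 were named after their values were seen. The genes whose profiles over the 7 arrays were closest to that of Nnat, by the root mean square difference of centred log2 values, were Nrarp (0.081), Asb4 (0.091) and Col2a1 (0.092). Asb4 is itself a maternally expressed imprinted gene.

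Sgce and Peg10 lie head to head on chromosome 6, start within a short distance of each other, and are both paternally expressed. Sgce encodes epsilon-sarcoglycan, a membrane protein of the dystrophin complex, and Peg10 a protein derived from a retrotransposon and needed for the placenta. Sgce read 141.9 and 145.6 in wild type, 159.4, 169.3 and 114.6 in heterozygotes, and 236.4 and 257.6 in the knockout, with both knockout arrays above the rest. Sgce rose against heterozygotes by 0.74 (SE 0.17, limma, adjusted p = 0.0340). The difference of 0.76 from wild type did not pass (SE 0.19, adjusted p = 0.0550). It did pass without heterozygous replicate 1 (0.0441) or heterozygous replicate 3 (0.0280), which enter only the spread here. It also passed with array weights (0.0282), with only knockout and wild type in the fit (0.0232) and with the mean of all probe sets per gene (0.0488). Sgce has 1 probe set, so the last fit changed only the other genes. Leaving out any other single array gave no call against wild type (0.70 to 0.83 over all such fits). Nor did testing over 13576 probe sets (limma, adjusted p = 0.0774). The first call was lost without heterozygous replicate 3 (log2 difference 0.58, adjusted p = 0.0599), knockout replicate 1 (0.155) or knockout replicate 2 (0.212).

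When the endoderm score entered as a covariate, the Sgce differences were 0.74 against heterozygotes and 0.76 against wild type, and neither passed in that fit, in which genotype and score can hardly be told apart (limma, adjusted p = 0.675 and 0.588). With the Y-linked mean as a covariate the difference from wild type was -0.05 (0.996) and that from heterozygotes 0.63 (0.102). The genes closest to it in profile were Vps26a (0.085), Prm1 (0.098) and Llgl2 (0.107). Those closest to Rian were Dhps (0.108), Cyp4f16 (0.161) and Abcb8 (0.168).

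Peg10 did not rise with its neighbour. It read 49.9 and 77.9 in wild type, 86.4, 36 and 56.9 in heterozygotes, and 33.3 and 44.7 in the knockout, with the knockout below wild type and overlapping the heterozygotes. Its log2 differences were -0.64 from wild type (95% confidence interval -1.46 to 0.17) and -0.50 from heterozygotes (-1.25 to 0.24), neither passed (limma, adjusted p = 0.383 and 0.417). These signals are among the dimmest of the 9 genes and vary widely within genotypes. Farther along the same cluster, Asb4, which encodes an ankyrin-repeat protein and is maternally expressed, fell by 0.98 against wild type (limma, adjusted p = 0.0484) and by 0.93 against heterozygotes (0.0336). With the endoderm score as a covariate its differences were 0.00674 and 0.15 (0.997 and 0.940).

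Mest and Peg3 did not pass in any comparison. Mest, a paternally expressed member of the hydrolase family that marks mesoderm, read 3424 and 3157 in wild type, 3039 to 3450 in heterozygotes, and 3337 and 3033 in the knockout. The ranges overlapped in all pairs of genotypes, and the knockout differed from wild type by -0.05 (95% confidence interval -0.27 to 0.18). Peg3, a zinc-finger protein needed for fetal growth, read 2169 and 2000 in wild type, 2080, 2166 and 2291 in heterozygotes, and 2199 and 2427 in the knockout on its brightest probe set. Its difference from wild type was 0.15 (95% confidence interval -0.07 to 0.37) and from heterozygotes 0.09 (-0.12 to 0.29). Of the other Peg3 probe sets, 1417355_at gave 0.57 against heterozygotes (SE 0.17, limma over 13576 probe sets, adjusted p = 0.0941) and 1417356_at gave -0.02 (SE 0.21).

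**Figure D3:**
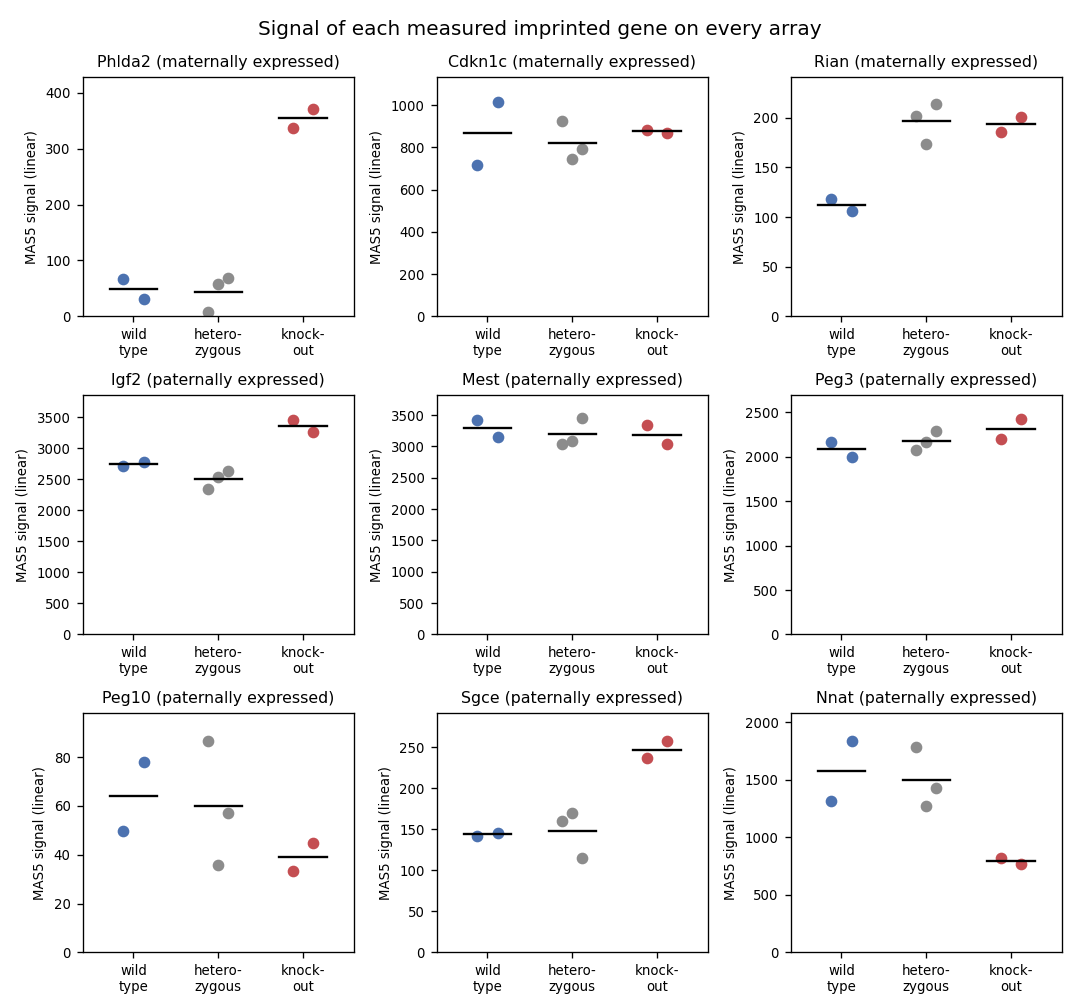
MAS5 signal (linear y axes, each from 0) of the 9 measured genes in the 3 genotypes (x axes), with 1 point per array and a bar at the mean. Phlda2, Igf2 and Sgce are highest and Nnat lowest on both knockout arrays, Rian is lowest in wild type, and the genotypes overlap for Cdkn1c and Mest.

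By parent of origin, the differences from wild type were positive for all 3 measured maternally expressed genes (0.04, 0.77 and 2.86) and for 3 of the 6 paternally expressed ones. The 0.04, of Cdkn1c, became -0.21 without wild-type replicate 1. Against heterozygotes, differences were positive for 2 of the 3 and 3 of the 6. Of the 3 measured maternally expressed genes, 1 rose against wild type (Rian) and 1 against heterozygotes (Phlda2), with median log2 differences of 0.77 and 0.10. Of the 6 paternally expressed genes, 1 fell against wild type (Nnat), and against heterozygotes 2 rose (Sgce and Igf2) and 1 fell (Nnat), with medians of 0.05 and 0.04. The medians of all 8019 genes were -0.01 and -0.02. A median over 3 genes is the value of 1 of them and describes little.

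Arrays that do not overlap are common among all genes with so few arrays. Knockout and wild type did not overlap for 7 of the 9 genes, against 52.9% of all genes, with 5 above (24.7% of all genes) and 2 below (28.3%). Knockout and heterozygotes did not overlap for 4, against 40.1%, with 3 above (18.3%) and 1 below (21.7%). Heterozygotes and wild type did not overlap for 2, against 17.4%, Rian above (9.12%) and Igf2 below (8.27%). For 4 of the 9, against 30.7% of all genes, both knockout arrays lay beyond all other arrays, with Phlda2, Sgce and Igf2 above (14.2%) and Nnat below (16.5%).

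**Figure D4:**
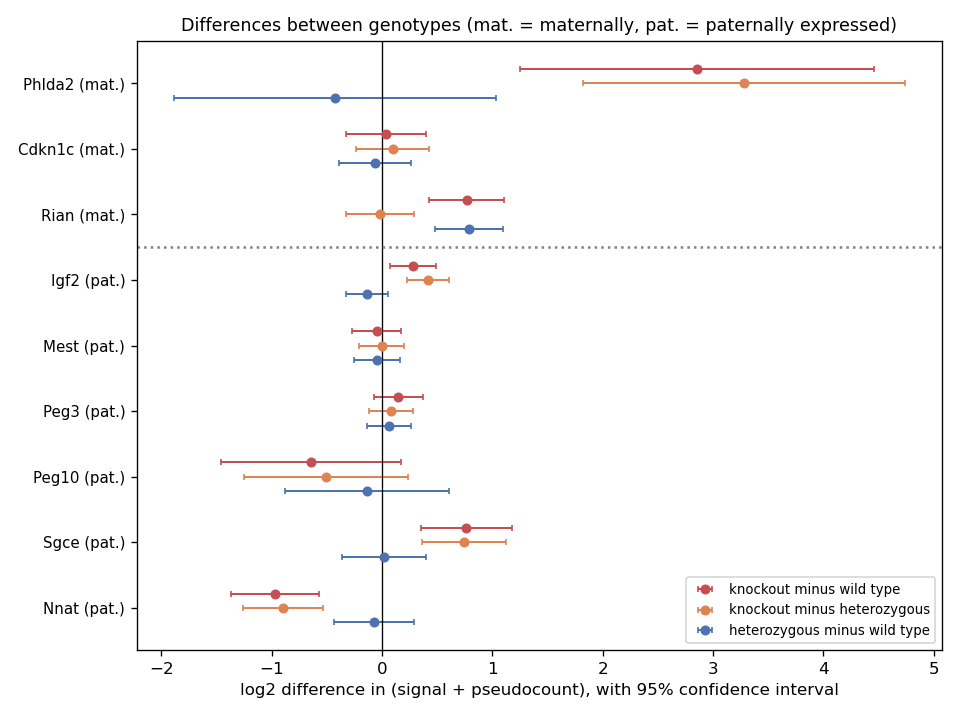
Log2 differences (x axis, points) with 95% confidence intervals (bars) of the 9 measured genes (y axis) in the 3 comparisons, with maternally expressed genes above the dotted line. Phlda2 has the largest differences, 2.86 and 3.28, and the widest intervals, and for Rian the 2 comparisons with wild type lie at 0.77 and 0.79 and the third at -0.02.

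Beyond the 9 genes, other imprinted genes were read from 2 lists made from textbook knowledge. Of 14 measured maternally expressed genes 1 fell against wild type (1.36% of all genes did), Asb4, and 13 did not pass, with a median of 0.02. Against heterozygotes 1 rose (3.11% of all genes), Igf2r, and 1 fell (2.76%), Asb4. Igf2r encodes the receptor that removes IGF2 from the cell surface, with signals of 523.5 and 497.3 in wild type, of 444.5, 491.5 and 416.3 in heterozygotes, and of 694.9 and 689.2 in the knockout. It rose against heterozygotes by 0.62 (SE 0.11, limma, adjusted p = 0.00981), and its difference of 0.44 from wild type did not pass (0.0699). Igf2r lost its call without either knockout array (adjusted p 0.0964 and 0.101) and, with the mean of its probe sets, was 0.34 (0.0730).

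Of 10 measured paternally expressed genes 1 rose against wild type (1.96% of all genes did), Magel2, and 9 did not pass, with a median of 0.21. Against heterozygotes 2 rose (3.11% of all genes), Magel2 and Ndn, with a median of 0.32. Magel2 and Ndn are related genes of the MAGE family that lie side by side in the Prader-Willi cluster on chromosome 7. Magel2 read 69.5 and 76.3 in wild type, 80.1, 77.1 and 69.9 in heterozygotes, and 140.4 and 122.1 in the knockout. It rose by 0.81 against wild type (SE 0.17, limma, adjusted p = 0.0332) and by 0.76 against heterozygotes (0.0228). Ndn rose by 0.48 against heterozygotes (adjusted p = 0.0442), and the difference of 0.52 from wild type did not pass (0.0610). Asb4 lost both calls without knockout replicate 1 or 2 (adjusted p 0.142 to 0.234) or heterozygous replicate 3 (0.0700 and 0.0797), that against wild type without wild-type replicate 2 (0.337), and that against heterozygotes without heterozygous replicate 1 (0.0556). Magel2 lost both without either knockout array or heterozygous replicate 3 (0.0502 to 0.220), and that against wild type without either wild-type array (0.121 and 0.157). With the mean of its probe sets Ndn was 0.18 (0.475). Ndn kept its call without heterozygous replicate 3 and lost it without any other single array (0.0629 to 0.224), and its difference from wild type passed without any 1 of the heterozygous arrays (0.0389 to 0.0482).

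**Figure D5:**
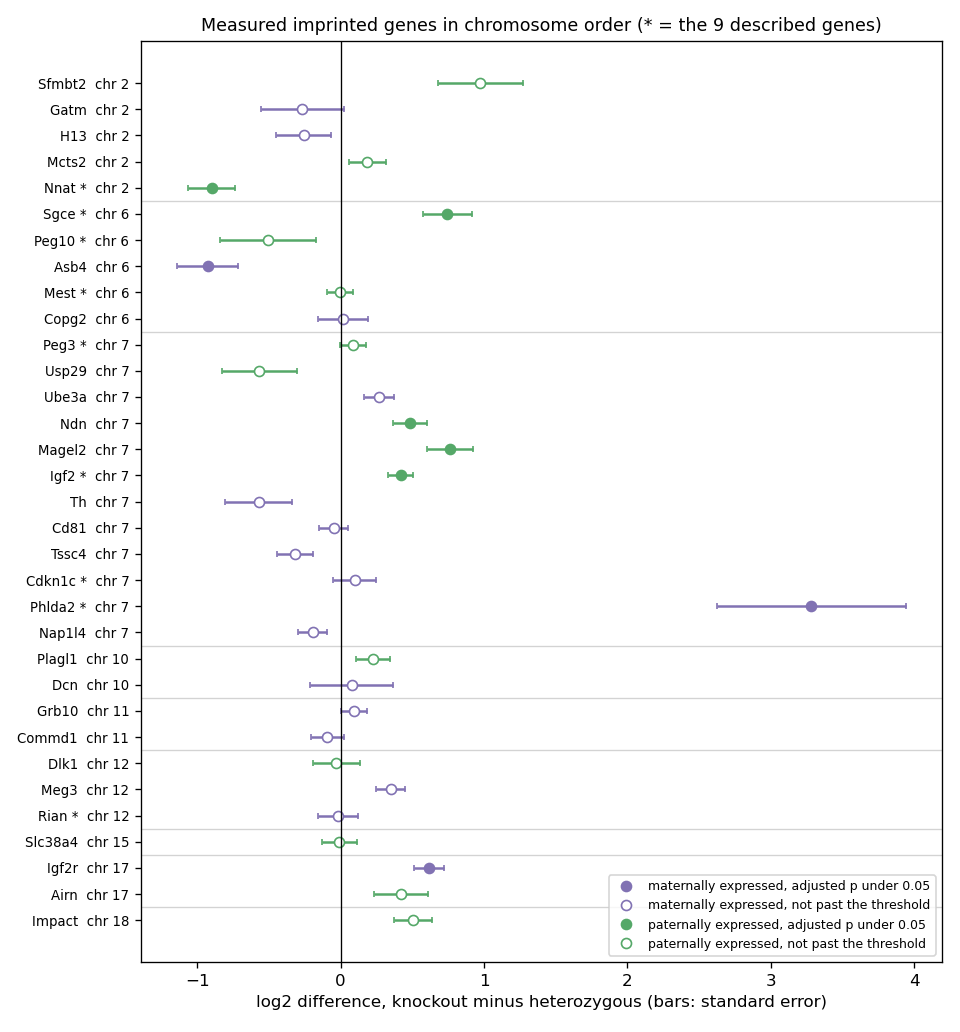
Log2 difference between knockout and heterozygotes (x axis, points) with its standard error (bars) for every measured imprinted gene in chromosome order (y axis), filled where limma's adjusted p was under 0.05. Neighbours differ in direction, as Sgce (0.74), Peg10 (-0.50) and Asb4 (-0.93) on chromosome 6 show, and Phlda2 (3.28) stands far from Cdkn1c (0.10) and Nap1l4 (-0.20).

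In the IGF2 pathway, RNA of the binding protein Igfbp2 rose and that of Igfbp4 and Igfbp5 fell in both knockout comparisons, while most measured genes did not pass. IGF2 acts through the receptor Igf1r, is cleared by Igf2r, and is held by binding proteins, which proteases such as Pappa release. Of 20 measured genes of this pathway, against wild type 1 rose (1.96% of all genes did) and 2 fell (1.36%), and 17 did not pass. Against heterozygotes 2 rose (3.11% of all genes), Igfbp2 and Igf2r, 2 fell (2.76%) and 16 did not pass. The medians were 0.02 and 0.07. The binding protein Igfbp2 had signals of 669 and 775 in wild type, of 672.2 to 863.6 in heterozygotes, and of 1207 and 1148 in the knockout. It rose by 0.71 against wild type (limma, adjusted p = 0.0205) and by 0.62 against heterozygotes (0.0176). Igfbp5 had signals of 760.4 and 861.8 in wild type, of 758.3 to 920.5 in heterozygotes, and of 449 and 413.4 in the knockout, and fell by 0.90 (adjusted p = 0.00522) and 0.94 (0.00181). Igfbp4 fell by 0.73 (adjusted p = 0.0259) and 0.67 (0.0195). With the endoderm score as a covariate, none of these differences passed in limma: those of Igfbp4 were -0.18 and -0.08 (adjusted p = 0.868 and 0.959), those of Igfbp5 -0.57 and -0.58 (0.475 and 0.530), and those of Igfbp2 1.197 and 1.15 (0.0973 and 0.122). Without the intensity trend Igfbp2 (0.0701 and 0.0656) and Igfbp4 (0.0866 and 0.0722) did not pass, nor did Igfbp4 against wild type without the filter on dim genes (0.0625). Of these, Igfbp5 kept its call against heterozygotes with any single array left out, and against wild type lost it without wild-type replicate 2 (0.0630) or knockout replicate 2 (0.0647). Igfbp2 and Igfbp4 lost theirs without either knockout array in both comparisons (adjusted p 0.119 to 0.162), without heterozygous replicate 3 against heterozygotes (0.0516 and 0.0657) and without wild-type replicate 2 against wild type (0.0745 and 0.237), and Igfbp2 also without wild-type replicate 1 (0.0966).

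Among the partners of p57 and the regulators of imprints, Ccnd1 and Ehmt2 fell against heterozygotes and no gene passed against wild type. Of 11 measured CDK inhibitors, cyclins and kinases 0 passed against wild type in limma (4 at an unadjusted p under 0.05, against 19.1% of all genes), and 1 fell against heterozygotes (2.76% of all genes did), cyclin D1 (Ccnd1, -0.60, adjusted p = 0.0274; without knockout replicate 1 or 2, 0.0746 and 0.229). Its difference of -0.57 from wild type did not pass (0.0588; 0.0192 without heterozygous replicate 1), and with the endoderm score as a covariate the differences were -0.16 from heterozygotes (0.918) and -0.17 from wild type (0.899). Of 12 measured regulators of imprints, among them DNA methyltransferases and Ctcf, 0 passed against wild type in limma (2 at an unadjusted p under 0.05, against 19.1% of all genes). Against heterozygotes 1 fell (2.76% of all genes did), the histone H3 lysine methyltransferase Ehmt2 (-0.50, adjusted p = 0.0141). It did not pass without knockout replicate 1 or 2, where the difference was -0.51 and -0.48. Intervals were wide for some genes that did not pass, as for the DNA methyltransferase Dnmt3b (0.47 against wild type, 95% confidence interval -0.09 to 1.02).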

How the data were processed

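Total RNA of each pool was hybridised to 1 Affymetrix 430A mouse array. The deposited values are intensity signals per probe set on a linear scale, which the authors computed in MAS5 according to the labels (per the submitters' processing notes). The sources used here do not state its version or scaling target. Of 22690 probe sets, 64 were controls, 20380 had 1 gene symbol and 691 several. Each gene was read from its brightest probe set with 1 symbol. Genes under the 40th percentile of mean log2 signal (38.1 as signal plus pseudocount) were left out. Differences came from 1 fit of limma 3.58.1 (R 4.3.3) to 7 arrays, with an intensity trend, 4 residual degrees of freedom and 6.19 prior ones. The script was tested on simulated data with the same spread for every gene. That test does not show how often changes of the size and spread reported here are found. Named genes were all 10 imprinted growth genes and, from each list, those past the threshold in a knockout comparison (at most 6), else the 2 with the smallest p. Outside this rule, values were also given for chromosome neighbours, marker genes and Dnmt3b, an example of a wide interval. Profile neighbours were given for the 3 genes of smallest p against wild type. The genes and lists were chosen with earlier results of these data known. The arrays were not treated as paired by replicate number.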

Additional observations from a re-analysis of the deposited data

How the results depend on the processing

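With 2 or 3 arrays a genotype, power is low and 1 array can decide a call. Over 14 alternatives, the reported calls against wild type stood in 10 (Rian) and 10 (Nnat), and those against heterozygotes in 7 (Igf2), 9 (Sgce) and 11 (Nnat). That of Phlda2 stood in 9 of 13, as the filter at the 60th percentile left it out. The threshold of 0.1, counted among the alternatives, cannot lose a call. The cause was not tested for any change. Counts are given below as members, other imprinted genes and all genes past the threshold in limma, where they moved from 2, 2 and 266 against wild type and 4, 4 and 470 against heterozygotes. Without the filter, other imprinted and all genes were 0 and 161 against wild type, and members, others and all were 2, 1 and 306 against heterozygotes. With the filter at the 60th percentile, 1 other gene passed against wild type. Without the intensity trend they were 1, 1 and 174, and 0, 2 and 262. With only the compared genotypes in the fit, 4 members and 4 others passed against wild type. Array weights gave 4, 6 and 514. A threshold of 0.1 gave 4, 6 and 562 against wild type and 7 others and 962 genes against heterozygotes. Every probe set on its own gave 0 others against wild type. The endoderm score as a covariate gave 0, 0 and 3, then 0, 0 and 0, and 1 gene for heterozygotes against wild type. The Y-linked score gave 0, 0 and 0, then 1, 2 and 209. The replicate block gave 0, 0 and 72, then 0, 0 and 76. Under the block the adjusted p-values were 0.0815 (Nnat) and 0.0808 (Rian) against wild type, and 0.0570 (Phlda2), 0.0897 (Igf2), 0.123 (Sgce) and 0.0874 (Nnat) against heterozygotes. Same-numbered arrays correlated at -0.29 to 0.0047 in their deviations. In a genotype with 2 arrays these deviations are mirror images, so the correlations cannot tell whether same-numbered arrays shared a litter or batch.

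Signs turned as follows, in log2. Quantile normalization: heterozygotes against wild type Mest 0.14 and Nnat 0.00368, knockout against heterozygotes Rian 0.00419 and Peg3 -0.042. Array weights: Sgce -0.046 in heterozygotes against wild type. Replicate block: Rian 0.045 and Mest 0.055 against heterozygotes. Mean of all probe sets: Igf2 -0.00107 against wild type and -0.078 against heterozygotes, Rian 0.11 against heterozygotes, and, in heterozygotes against wild type, Igf2 0.077 and Peg3 -0.093, with 1 gene not overlapping. Endoderm score, against wild type: Phlda2 -0.19, Peg3 -0.035, Peg10 0.82 and Asb4 0.00674, and against heterozygotes: Phlda2 -0.024, Peg3 -0.11, Peg10 1.08, Nnat 0.039 and Asb4 0.15. Y-linked score, against wild type: Mest 0.12, Peg3 -0.016, Peg10 1.08, Sgce -0.048, Nnat 0.099, Asb4 0.00286, Igf2r -0.015 and Igfbp4 0.25, against heterozygotes: Rian 0.013 and Mest 0.022, and in heterozygotes against wild type: Cdkn1c 0.66, Mest 0.10, Peg3 -0.077, Peg10 1.33, Sgce -0.68 and Nnat 0.85.

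Leaving out each array in turn, members past the threshold ranged from 0 to 4 in both knockout comparisons, other imprinted genes from 0 to 4 against wild type and 0 to 5 against heterozygotes, and all genes from 36 to 417 and from 67 to 545. Members that did not overlap ranged from 7 to 9 against wild type, 4 to 6 against heterozygotes and 2 to 5 between heterozygotes and wild type. Median differences ranged from -0.00754 to 0.11 (paternal, against wild type), 0.00784 to 0.088 (paternal, against heterozygotes), -0.075 to 0.021 (paternal, heterozygotes against wild type), 0.69 to 0.84, 0.03 to 0.19 and -0.06 to 0.43 (maternal, in that order). Against wild type, Cdkn1c ranged from -0.21 to 0.29 and Mest from -0.12 to 0.022. Against heterozygotes, Rian ranged from -0.10 to 0.045 and Mest from -0.071 to 0.066. In heterozygotes against wild type, Cdkn1c ranged from -0.31 to 0.19, Mest from -0.10 to 0.014, Nnat from -0.31 to 0.17, Peg10 from -0.44 to 0.16, Phlda2 from -0.95 to 0.43 and Sgce from -0.086 to 0.19.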
